A study of Mus musculus with 8 samples.

Results

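Platelets act through stored granule cargo and through a small set of enzymes, receptors and tubulins, and 10 genes of this kind are described here: the granule proteins Pf4, Ppbp and Thbs1, the lipoxygenases Alox12 and Alox12e, the nucleotide receptors P2ry12 and P2rx1, the G protein subunit Gnaz with its neighbour Rsph14, and the tubulin Tubb1. They were taken by symbol from the 54749 genes that have a transcript in the count files, and they were chosen by their levels in KO against floxed libraries of this series, which had been seen before. Their fold changes below are therefore descriptions and carry no p-value. All 10 were found, and all 10 passed the filter on low counts with 21902 genes in total. The libraries hold RNA of LT-HSCs, the long-term repopulating fraction of hematopoietic stem cells, from bone marrow of mice aged 6 months. One group of 4 mice was homozygous asrij floxed (replicates 1, 3, 4 and 5) and the other group of 4 was asrij KO in the whole body (replicates 2, 3, 4 and 5), with 1 library for each mouse. The floxed controls thus carried the floxed allele rather than a wild type one, and C57BL/6J was the wild type strain of the study. Mice of both genders were used. For these libraries the study's methods give the sorted population as LSK CD150+ CD48+, where LSK stands for lineage-negative, Sca1-positive and c-Kit-positive cells. LT-HSCs are usually sorted as CD48-, as the same methods do for other experiments, so the stated gate goes against the label, and which of the gates applied was not resolved here. The KO is not restricted to blood cells, so effects within the sorted cells and effects through other tissues cannot be told apart.

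In the megakaryocyte, the platelet's parent cell, alpha granules are filled with chemokines and adhesive proteins, and dense granules with ADP and other small molecules. When a platelet meets a damaged vessel, ADP and ATP from the granules act on nucleotide receptors of the same and other platelets, heterotrimeric G proteins carry that signal inward, arachidonic acid is oxidised by lipoxygenase and cyclooxygenase, and a coil of microtubules built from a platelet-specific beta-tubulin gives the resting cell its disc shape. In stem cells, several megakaryocyte genes are known to be expressed at a low level in a platelet-biased subset.

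Asrij is the protein of Ociad1 (chr5:73292784-73314069, GRCm38), and its transcript was read first as a check of the labels. In the order of their replicate numbers, 1, 3, 4 and 5 for floxed and 2, 3, 4 and 5 for KO, Ociad1 stood at 41.6, 66.9, 36.7 and 31.4 CPM in floxed and at 15.2, 19.7, 12.5 and 11.7 CPM in KO libraries, where CPM is the TMM-normalized count (each count divided by the scaled library size, in units of 1e+06). Every KO library lay below every floxed library (log2 fold change −1.58, SE 0.27, adjusted p = 0.0249 by edgeR's quasi-likelihood test, and 0.0289 with a replicate block). The same order of libraries is used for every list of values below. An exact two-sided permutation test over the 70 labelings gave p = 0.0286, the smallest value it can give. Transcript of the targeted gene was lower in KO libraries but not absent.

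Gene counts summed to 23412829 to 44874882 per library. One library stood apart. Floxed replicate 3 had the most genes detected, 34367 where the other 7 had 28182 to 29707, the lowest summed level of 11 neutrophil markers among floxed libraries (16730 CPM against 46430 to 53180) and the highest of 15 erythroid markers (72370 CPM against 28530 to 52310). Log2 fold changes of the 10 genes and counts over gene lists are therefore given with and without it. The label LT-HSC was compared with the markers of that cell. Of 13 stem cell markers, none was at 0 in all libraries, and the genes of the sort markers c-Kit and CD48 were the most abundant, Kit at 55.96 CPM in floxed and 50.9 CPM in KO and Cd48 at 48.4 and 41.6 CPM. These do not set LT-HSCs apart, since all LSK cells are c-Kit-positive and the usual LT-HSC gate is CD48-. Mllt3 averaged 14.2 and 22.3 CPM, Ly6a, which encodes Sca1, 11.4 and 9.63 CPM and Hlf 9.18 and 6.76 CPM. Slamf1, which encodes CD150, was lower at 1.33 and 2.80 CPM, as were Procr at 0.344 and 0.544 CPM and Hoxb5 at 0.103 and 0.0995 CPM. The rest of the list was low too. Ctnnal1 stood at 2.01 and 2.13 CPM, Mecom at 1.815 and 1.478 CPM and Mycn at 1.61 and 2.13 CPM. Esam stood at 1.11 and 3.365 CPM and Fgd5 at 0.423 and 0.7585 CPM. Genes of maturing cells were far more abundant, with the neutrophil granule gene Ngp at a mean of 12780 CPM in floxed and 8204 CPM in KO, and the alpha globin gene Hba-a1 at 14190 and 70830 CPM. In bulk RNA of this kind, a change in the number of cells that express a gene and a change in RNA per cell cannot be told apart.

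The sequence before the start of 5 of these genes is shown because Pf4 and Ppbp lie side by side and were high together, Alox12 and Tubb1 were high in the same libraries, and P2ry12 went the other way. Each line gives the 250 bases before the RefSeq start of the gene (GRCm38.p6), 5′ to 3′ on the strand of the gene, and capitals mark AGGAAG or its reverse complement CTTCCT, the core letters of a motif bound by ETS factors.
Pf4, chr5:90772185-90772434, plus strand: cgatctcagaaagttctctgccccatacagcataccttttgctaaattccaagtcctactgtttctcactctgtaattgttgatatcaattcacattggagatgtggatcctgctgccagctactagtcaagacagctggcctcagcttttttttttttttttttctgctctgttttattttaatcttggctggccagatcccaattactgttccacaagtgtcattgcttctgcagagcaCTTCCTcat
Ppbp, chr5:90768268-90768517, plus strand: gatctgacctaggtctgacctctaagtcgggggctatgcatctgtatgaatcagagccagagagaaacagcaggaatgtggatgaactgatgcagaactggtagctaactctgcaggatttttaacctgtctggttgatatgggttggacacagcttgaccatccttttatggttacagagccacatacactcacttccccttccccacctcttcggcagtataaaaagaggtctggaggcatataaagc
Alox12, chr11:70255371-70255620, minus strand: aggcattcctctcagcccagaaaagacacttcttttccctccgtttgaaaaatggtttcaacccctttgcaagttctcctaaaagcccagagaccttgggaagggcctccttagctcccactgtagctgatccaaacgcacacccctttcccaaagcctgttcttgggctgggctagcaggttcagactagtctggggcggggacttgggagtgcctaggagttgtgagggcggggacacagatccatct
Tubb1, chr2:174450345-174450594, plus strand: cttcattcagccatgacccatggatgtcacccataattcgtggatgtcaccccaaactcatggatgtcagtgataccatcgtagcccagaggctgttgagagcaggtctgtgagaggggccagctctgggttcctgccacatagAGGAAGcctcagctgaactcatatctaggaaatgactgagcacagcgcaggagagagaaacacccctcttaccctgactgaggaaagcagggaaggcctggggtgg
P2ry12, chr3:59262986-59263235, minus strand: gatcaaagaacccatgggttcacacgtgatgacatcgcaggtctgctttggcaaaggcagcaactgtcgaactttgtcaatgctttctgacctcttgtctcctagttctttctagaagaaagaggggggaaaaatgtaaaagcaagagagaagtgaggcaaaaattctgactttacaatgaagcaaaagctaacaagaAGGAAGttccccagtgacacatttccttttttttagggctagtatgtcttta
RefSeq windows were matched for 8 of the 10 genes (9 windows, since Rsph14 has a pair of starts), and Gnaz and Thbs1 had none. Both strands were searched for AGGAAG, for GATAA (reverse complement TTATC), the core of a GATA motif, and for TGTGGT (reverse complement ACCACA), the core of a RUNX motif. AGGAAG was found in 3 of 9 windows, 9 bases before the start in Pf4, 106 in Tubb1 and 52 in P2ry12, and in 29.5% of the 32851 RefSeq windows of the same length. GATAA was found in 1 of 9 windows, that of P2rx1, and in 22.6% of all windows. TGTGGT was found in 0 of 9 windows and in 14% of all. The gene that was lower in KO carried the same AGGAAG letters as 2 that were higher.

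Of the 10 genes, 9 had a higher mean in KO than in floxed libraries and 1, P2ry12, had a lower mean. With the limits of the study's methods, a log2 fold change beyond 1.5 in either direction at an adjusted p under 0.05, 7 of the 10 were called, all higher in KO, where 1.19% of the genes tested were called, 0.452% as higher and 0.74% as lower. The same 7 were those past the limit on adjusted p alone, beside 2.97% of the genes tested. In 9 of the 10, the KO and the floxed libraries did not overlap, against 14.8% of the genes tested. Both counts only restate how the genes were picked. Gnaz and Rsph14 enter every count over the 10 genes, here and below, as 2 genes. They are nearly 1 measurement, since 954 of the 969 counts of Rsph14 are also counts of Gnaz. The median and the summed level that follow likewise hold those reads for both genes. The median log2 fold change was 1.70 over the 10 genes and −0.01 over all genes tested. Summed over the 10 genes, the level was 61.5 to 113.9 CPM in floxed and 250.1 to 276.1 CPM in KO libraries. Without floxed replicate 3, 7 were called again, with Tubb1 added and Alox12e dropped, where 3.88% of the genes tested were called. Each of the other 7 fits that left out 1 library called 4 of the 10, Pf4, Thbs1, Gnaz and Rsph14. In those fits 0.229% to 0.691% of the genes tested were called. Under a block for the replicate number, which keeps only the 3 pairs numbered 3, 4 and 5, Pf4 and Thbs1 were the 2 called, where 0.204% of the genes tested were called.

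**Figure D1:**
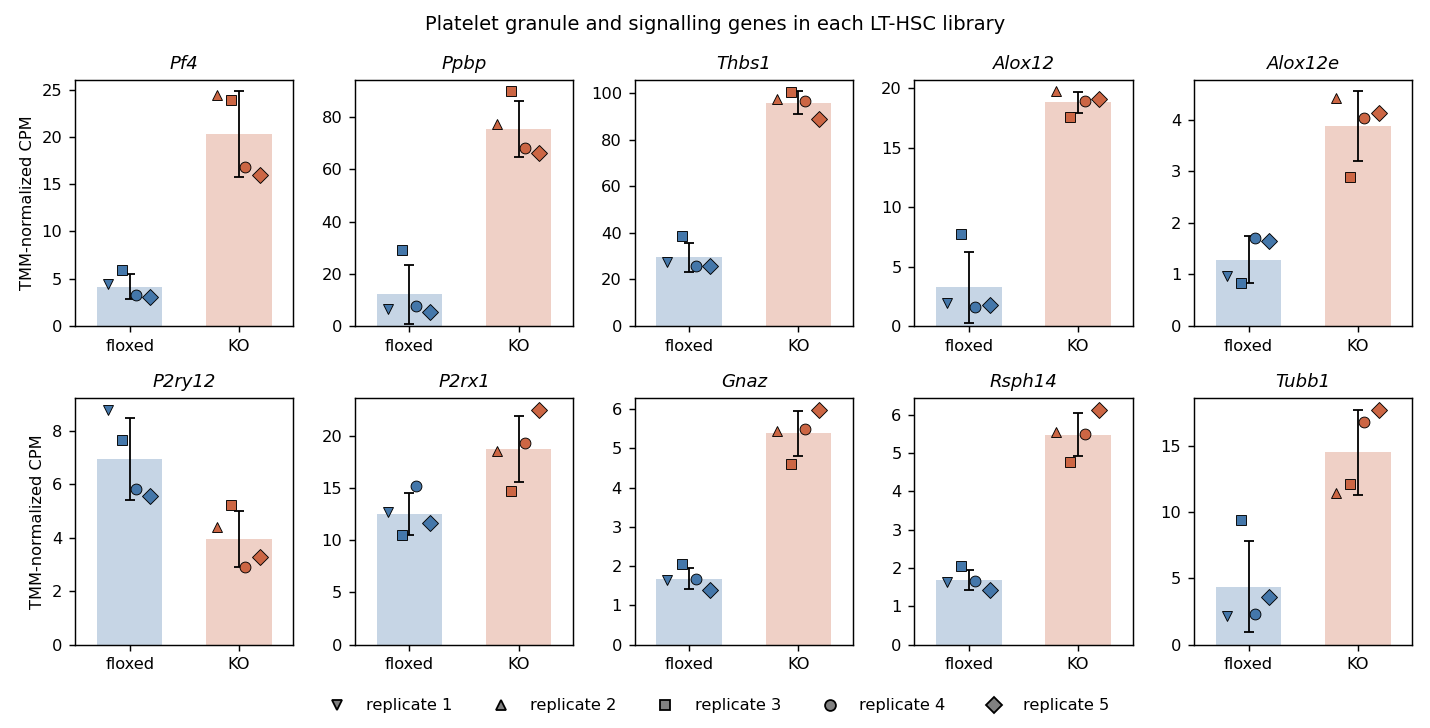
TMM-normalized CPM of each of the 10 genes (y axis, linear, own scale in each panel) in the 4 floxed (blue) and 4 KO (orange) libraries; bars are group means, whiskers ± 1 SD and marker shapes the replicate numbers. In every panel except that of P2rx1 the KO points lie clear of the floxed points, below them for P2ry12 and above them for the rest, and the square of floxed replicate 3 lies well above the other floxed points for Ppbp, Alox12 and Tubb1.

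Pf4 encodes platelet factor 4, a chemokine stored in alpha granules, and lies on chromosome 5 (chr5:90772435-90773383, plus strand). It was counted 169, 312, 76 and 81 times in the floxed libraries, or 4.46, 5.90, 3.23 and 3.10 CPM, and 955, 919, 475 and 441 times in the KO libraries, or 24.5, 23.9, 16.9 and 15.98 CPM. All KO libraries were above all floxed libraries, and within each genotype the libraries numbered 1 to 3 were higher than those numbered 4 and 5. The mean was 4.17 ± 1.30 CPM in floxed and 20.3 ± 4.51 CPM in KO (SD, n = 4), a 4.87-fold difference (log2 fold change 2.27, SE 0.26). It was 2.50 without floxed replicate 3. The difference in log2(CPM + 1) was 2.04 among the libraries numbered 1 to 3 and 2.06 among those numbered 4 and 5.

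Ppbp, which encodes pro-platelet basic protein, the precursor of other alpha-granule chemokines, lies on the same strand, 2372 bases before Pf4 (chr5:90768518-90770063). Its level was 6.33, 29.1, 7.74 and 5.44 CPM in floxed and 77.3, 89.8, 68.2 and 66.4 CPM in KO libraries. The genotypes did not overlap, but floxed replicate 3 was 4.47 times the mean of the other floxed libraries. The mean was 12.2 ± 11.3 CPM in floxed and 75.4 ± 10.7 CPM in KO (SD, n = 4), with a log2 fold change of 2.63 (SE 0.52) that became 3.55 without floxed replicate 3. The ratio of Ppbp to Pf4 in CPM was 1.42, 2.40 and 1.75 in floxed replicates 1, 4 and 5, 4.93 in floxed replicate 3, and 3.16 to 4.16 in the KO libraries, so the pair did not keep 1 ratio across libraries. The next genes tested on either side, Afm (log2 fold change −2.06, adjusted p = 0.233 in edgeR) and Mthfd2l (−0.28, adjusted p = 0.642), did not pass the test. Pf4 and Ppbp share their chromosome with the deleted gene, and Ppbp starts 17.45 Mb and Pf4 17.46 Mb beyond the end of Ociad1.

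Thbs1 encodes thrombospondin 1, a large adhesive glycoprotein of alpha granules that other cells such as macrophages also make (chr2:118111876-118127133, plus strand). Its levels were 27.5, 38.6, 26.0 and 25.9 CPM in floxed and 97.5, 100.4, 96.5 and 89.0 CPM in KO libraries. The KO libraries were close to each other and far above the highest floxed library. The mean was 29.5 ± 6.13 CPM in floxed and 95.8 ± 4.88 CPM in KO (SD, n = 4), and the log2 fold change was 1.70 (SE 0.17), or 1.87 without floxed replicate 3. An antisense noncoding gene, Gm29233, overlaps 597 bases of the Thbs1 span and holds 389 counts, 2.3% of the Thbs1 total. Its own log2 fold change was 1.17 (adjusted p = 0.0956), and since the counts show no use of strand at the loci examined here, its reads and those of Thbs1 cannot be told apart there. The genes on either side of Thbs1, Gm13986 (log2 fold change −0.46, adjusted p = 0.347) and Fsip1 (0.15, adjusted p = 0.912), did not pass the test.

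Most other granule genes did not pass the test. Of 45 genes for alpha-granule cargo, dense-granule contents and granule assembly, 43 were tested, 1 rose, 1 fell and 41 were not called at an adjusted p under 0.05, beside 1.22% of all genes tested that rose and 1.75% that fell at this adjusted p. The median log2 fold change was 0.02. Before adjustment, 9 were higher and 10 lower at p under 0.05 in edgeR. The share of all genes tested at that unadjusted p was not determined. Such unadjusted counts, here and in the lists below, are therefore not a result about the lists. DESeq2 counted 4 that rose and 3 that fell at an adjusted p under 0.05, beside 5.12% and 6.05% of all genes. Clu, which encodes the secreted chaperone clusterin, rose from 2.66 ± 1.20 to 13.03 ± 1.04 CPM (log2 fold change 2.28, adjusted p = 0.0125 in edgeR, 0.0637 with the block) and passed in all 8 fits that left out 1 library. Lyst, the regulator of lysosome-related organelles that is mutated in beige mice, fell from 275.2 ± 78.2 to 132.2 ± 9.77 CPM (−1.06, adjusted p = 0.0343, 0.140 with the block) and passed in 2 of those 8 fits. The gene with the highest floxed level of the list, F13a1, the A subunit of coagulation factor XIII, stood at 378.4 ± 147.0 CPM in floxed and 195.1 ± 31.1 CPM in KO (adjusted p = 0.107). Its span is overlapped by 2 genes, of which Gm49144 held 64.8% as many counts, and the share of their reads in the F13a1 count was not tested. When floxed replicate 3 was left out, 10 genes of this list rose and 7 fell, while 8.9% of all genes tested rose and 8.64% fell.

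Alox12 encodes the arachidonate lipoxygenase of platelets (chr11:70241457-70255353, minus strand). In floxed libraries it stood at 1.93, 7.74, 1.62 and 1.76 CPM, and in KO libraries at 19.7, 17.6, 18.9 and 19.1 CPM. The KO libraries agreed closely, and floxed replicate 3 lay between the other floxed libraries and the KO libraries. The mean was 3.26 ± 2.99 CPM in floxed and 18.8 ± 0.891 CPM in KO (SD, n = 4), a log2 fold change of 2.50 (SE 0.50) that became 3.42 without floxed replicate 3. A shorter transcript that covers the first 6379 bases of the gene held 35.9% of its counts. There the ratio of KO to floxed means was 3.95, and over the remaining 7518 bases at the 3′ end it was 7.48.

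Alox12e, an epidermis-type lipoxygenase gene of the same cluster, lies 60257 bases from Alox12 on the same strand (chr11:70315610-70322628). Its levels were low, at 0.976, 0.832, 1.70 and 1.65 CPM in floxed and 4.43, 2.89, 4.05 and 4.13 CPM in KO libraries, which are 37 to 44 and 111 to 173 counts. The genotypes did not overlap, and floxed replicate 3 was here the lowest library instead of the highest floxed one. The log2 fold change was 1.60 (SE 0.32), and 1.44 without floxed replicate 3. Alox12 was 0.95 to 1.97 times Alox12e in floxed replicates 1, 4 and 5, 9.30 times in floxed replicate 3 and 4.45 to 6.09 times in the KO libraries.

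The next gene along, Alox15, 21524 bases beyond Alox12e, encodes the leukocyte lipoxygenase of eosinophils and macrophages and was not among the 10. It rose from 51.5 ± 3.50 CPM in floxed to 134.0 ± 2.95 CPM in KO (log2 fold change 1.38, SE 0.13, adjusted p = 0.0015), passed with each library left out in turn (8 of 8 fits) and kept an adjusted p of 0.0426 with the block. On the other side of Alox12, Rnasek did not pass the test (log2 fold change 0.09, adjusted p = 0.909). Across 23 genes for eicosanoid enzymes and receptors, 20 were tested, and 2 rose and 0 fell in edgeR (1.22% and 1.75% of all genes tested). The median log2 fold change was −0.09. At an unadjusted p under 0.05, 4 were higher and 2 lower. DESeq2 counted 3 that rose and 1 that fell (5.12% and 6.05% of all genes). The second that rose was Gpx4, a peroxidase that reduces lipid hydroperoxides, from 13 ± 1.54 to 23.5 ± 3.72 CPM (0.86, adjusted p = 0.0338, 0.122 with the block), and it passed in 1 of the 8 fits that left out 1 library. Gpx1, a peroxidase abundant in red cells and the most abundant of the list, stood at 1234 ± 427.7 and 2420 ± 684.9 CPM (0.97, adjusted p = 0.123). The enzymes of the thromboxane branch were not past the test, Ptgs1, the cyclooxygenase of platelets, at −0.37 (adjusted p = 0.271) and Tbxas1, thromboxane synthase, at 0.30 (adjusted p = 0.385). These 2 were named after their values had been seen. Leaving out floxed replicate 3, 5 genes of the list rose and 5 fell (8.9% and 8.64% of all genes).

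P2ry12 encodes the ADP receptor that couples to inhibitory G proteins and is the target of clopidogrel, and it was the only one of the 10 with a lower mean in KO (chr3:59216272-59262871, minus strand). Its floxed libraries stood at 8.78, 7.64, 5.83 and 5.56 CPM, and its KO libraries at 4.38, 5.23, 2.91 and 3.26 CPM. The genotypes did not overlap, although KO replicate 3 came close to floxed replicate 5. The mean was 6.95 ± 1.53 CPM in floxed and 3.95 ± 1.06 CPM in KO (SD, n = 4), with a log2 fold change of −0.82 (SE 0.26), or −0.75 without floxed replicate 3.

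The P2ry12 span lies wholly inside Med12l, a Mediator subunit gene on the opposite strand that holds 13162 counts against 1563 for P2ry12. Counts of a short transcript at the 3′ end of P2ry12, 3900 bases long, allow the span to be split. That end held 56.0% of the counts, at 4.61, 4.16, 3.70 and 3.83 CPM in floxed and 2.38, 2.44, 1.74 and 2.10 CPM in KO libraries, a ratio of means of 0.532. Per kb it was dense, 1.05 CPM in floxed and 0.556 CPM in KO, against 0.0675 and 0.0417 CPM per kb over the other 42611 bases and 0.173 and 0.142 CPM per kb over Med12l outside P2ry12. Med12l itself did not pass the test (log2 fold change −0.35, adjusted p = 0.228). The ratio was below 1 in both parts of the span, and the share of Med12l reads in either part was not tested.

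**Figure D2:**
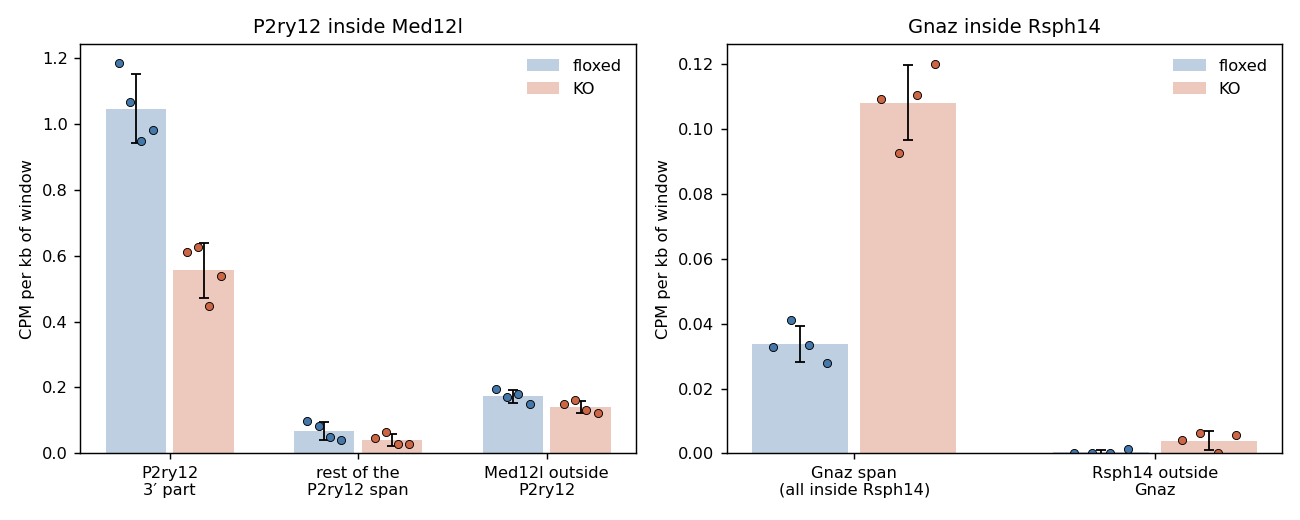
CPM per kb of window (y axes, linear) for the 4 floxed (blue) and 4 KO (orange) libraries in windows of 2 pairs of overlapping genes; bars are means, whiskers ± 1 SD and points single libraries. On the left the 3′ part of P2ry12 stands at 1.05 in floxed and 0.556 in KO, far above the rest of its span and above Med12l outside it; on the right nearly all counts of Rsph14 fall inside the Gnaz span.

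P2rx1 encodes the ATP-gated cation channel of platelets (chr11:72999103-73015200, plus strand). It stood at 12.7, 10.6, 15.2 and 11.7 CPM in floxed and at 18.6, 14.8, 19.3 and 22.5 CPM in KO libraries. Here the genotypes overlapped, since KO replicate 3 was below floxed replicate 4. The log2 fold change was 0.58 (SE 0.19), and 0.52 without floxed replicate 3. The ratio of KO to floxed means was 1.65 over the 5407 bases at the 3′ end, which held 79.2% of the counts, and 1.02 over the 10691 bases before them. Because P2rx1 was higher and P2ry12 lower, the ratio of the ATP receptor to the ADP receptor in CPM was 1.38 to 2.61 in floxed and 2.83 to 6.90 in KO libraries. Atp2a3 and Camkk1, the genes on either side of P2rx1, did not pass the test (log2 fold changes −0.22 and −0.18, adjusted p = 0.649 and 0.803).

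Among 19 other purinergic receptors and nucleotide enzymes, 17 were tested, and 0 rose and 2 fell in edgeR (1.22% and 1.75% of all genes tested). The median log2 fold change was −0.41. At an unadjusted p under 0.05, 2 were higher and 7 lower. DESeq2 counted 1 that rose and 5 that fell (5.12% and 6.05% of all genes). P2ry13, an ADP receptor gene 5390 bases from P2ry12 that also lies inside Med12l, fell from 19.7 ± 3.69 to 10.9 ± 0.402 CPM (log2 fold change −0.86, adjusted p = 0.0337, 0.154 with the block). Nt5e, the ectonucleotidase that makes adenosine from AMP, fell from 28.1 ± 6.67 to 13.8 ± 1.27 CPM (−1.03, adjusted p = 0.0323, 0.157 with the block). P2ry13 and Nt5e each passed in 1 of the 8 fits that left out 1 library. Entpd1, which clears ATP and ADP and had the highest floxed level of the list, stood at 90.8 ± 15.2 and 60.0 ± 4.16 CPM (adjusted p = 0.0687). The second ADP receptor of platelets, P2ry1, named after its value had been seen, had a log2 fold change of −0.41 (adjusted p = 0.182). With floxed replicate 3 left out, 1 gene of the list rose and 7 fell (8.9% and 8.64% of all genes).

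Gnaz encodes the alpha subunit of Gz, an inhibitory G protein of platelets and neurons (chr10:74967177-75016907, plus strand). Rsph14, a radial spoke protein gene of motile cilia with no known platelet role, spans it on the opposite strand (chr10:74957477-75032586). Gnaz stood at 1.64, 2.04, 1.66 and 1.38 CPM in floxed and at 5.43, 4.60, 5.50 and 5.98 CPM in KO libraries. The genotypes did not overlap, and the mean was 1.68 ± 0.273 CPM in floxed and 5.38 ± 0.571 CPM in KO (SD, n = 4). The log2 fold change was 1.67 (SE 0.22), and 1.80 without floxed replicate 3.

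Rsph14 gave nearly the same values, 1.64, 2.04, 1.66 and 1.42 CPM in floxed and 5.54, 4.76, 5.50 and 6.12 CPM in KO libraries, with a log2 fold change of 1.69 (SE 0.22), or 1.81 without floxed replicate 3. The Gnaz span lies entirely within that of Rsph14, and 954 of the 969 counts of Rsph14 are also counts of Gnaz. Outside Gnaz, Rsph14 had 15 counts over 25358 bases, 1 of them in the floxed libraries. A shorter Gnaz transcript over 26058 bases at the 3′ end held 97.9% of the Gnaz counts. The pair therefore amounts to 1 measurement rather than 2, and what Rsph14 itself does was not detectable at this depth. Rab36 and Gm6419 on either side did not pass the test (log2 fold changes 0.62 and 0.16, adjusted p = 0.173 and 0.787).

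Of 48 further genes of G protein signalling in platelets, 47 were tested, and 1 rose and 1 fell in edgeR (1.22% and 1.75% of all genes tested). The median log2 fold change was −0.12. With no adjustment, 6 were higher and 10 lower at p under 0.05. DESeq2 counted 3 that rose and 5 that fell (5.12% and 6.05% of all genes). F2rl2, a thrombin receptor gene, went from 2.63 ± 0.389 to 8.06 ± 0.602 CPM (log2 fold change 1.62, adjusted p = 0.00602, 0.0750 with the block). It lies inside the far more highly counted gene Iqgap2, and the share of Iqgap2 reads in its count was not tested. Pik3cg, the G protein-activated lipid kinase of leukocytes and platelets, fell from 140.1 ± 24.4 to 79.7 ± 4.42 CPM (−0.82, adjusted p = 0.0332, 0.171 with the block). With 1 library left out, F2rl2 passed in 8 of 8 fits and Pik3cg in 1. The most abundant, Gnai2, which encodes an inhibitory alpha subunit like that of Gnaz, stood at 1107 ± 537.6 and 914.2 ± 190.0 CPM (adjusted p = 0.715). If floxed replicate 3 was left out, 5 genes of the list rose and 10 fell (8.9% and 8.64% of all genes).

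Tubb1 encodes the beta-tubulin of the platelet marginal band (chr2:174450695-174457882, plus strand). It stood at 2.16, 9.40, 2.30 and 3.60 CPM in floxed and at 11.4, 12.1, 16.8 and 17.7 CPM in KO libraries. The genotypes did not overlap, but floxed replicate 3 came close to KO replicates 2 and 3. The mean was 4.37 ± 3.42 CPM in floxed and 14.5 ± 3.19 CPM in KO (SD, n = 4), with a log2 fold change of 1.72 (SE 0.46), or 2.45 without floxed replicate 3. In contrast to Pf4, the KO libraries numbered 4 and 5 were the higher ones. The difference in log2(CPM + 1) was 1.16 among the libraries numbered 1 to 3 and 2.23 among those numbered 4 and 5. The genes on either side, Ctsz (log2 fold change −0.10, adjusted p = 0.881) and Atp5e (0.78, adjusted p = 0.391), did not pass the test.

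The cytoskeleton list held 32 genes, all tested, of which 1 rose and 0 fell in edgeR (1.22% and 1.75% of all genes tested). The median log2 fold change was −0.11. At an unadjusted p under 0.05, 7 were higher and 3 lower. DESeq2 counted 3 that rose and 1 that fell (5.12% and 6.05% of all genes). Myl9, the regulatory myosin light chain of platelets and smooth muscle, rose from 3.02 ± 1.38 to 15.2 ± 1.90 CPM (log2 fold change 2.32, adjusted p = 0.00935, 0.0643 with the block), and passed in 8 of 8 fits that left out 1 library. Flna, the actin cross-linker filamin A and the most abundant of the list, stood at 1334 ± 319.5 and 869.6 ± 70.9 CPM (−0.62, adjusted p = 0.144). Without floxed replicate 3, 4 rose and 6 fell (8.9% and 8.64% of all genes).

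**Figure D3:**
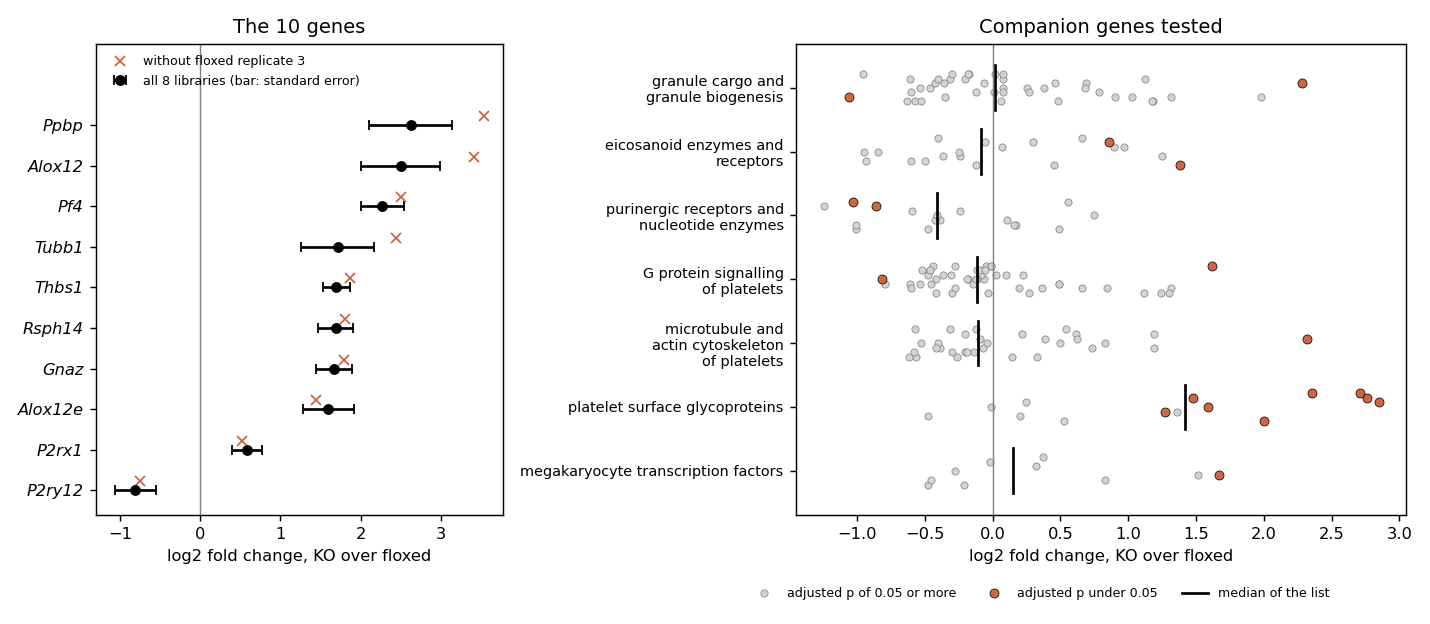
Log2 fold change, KO over floxed (x axes), of the 10 genes with standard errors and of the same genes without floxed replicate 3 (crosses, left), and of the companion genes tested in 7 lists (right), where orange points passed the test and black bars are list medians. Leaving out floxed replicate 3 moves Ppbp, Alox12 and Tubb1 furthest, and 8 of the 14 surface glycoprotein genes lie among the orange points while the other lists hold 1 or 2.

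Surface glycoproteins were the companion list with the most genes past the test. Of 14 genes, all tested, 8 rose and 0 fell in edgeR, beside 1.22% and 1.75% of all genes tested, with a median log2 fold change of 1.42. At an unadjusted p under 0.05, 9 were higher and 0 lower, and DESeq2 counted 9 that rose and 0 that fell, beside 5.12% and 6.05% of all genes. Itga2b, the alpha chain of the fibrinogen receptor, rose from 15.8 ± 2.55 to 38.1 ± 3.13 CPM (log2 fold change 1.27, adjusted p = 0.00803 in edgeR). Mpig6b, an inhibitory receptor of megakaryocytes, rose from 0.987 ± 0.645 to 7.28 ± 1.28 CPM (2.85, adjusted p = 0.0143), and the adhesion receptor genes Gp5 and Gp6 rose by 2.76 and 2.35 on the log2 scale (adjusted p = 0.0156 and 0.0162). Ly6g6c overlaps the Mpig6b span and held 13.2% as many counts, and the share of its reads in the Mpig6b count was not tested. With 1 library left out, Itga2b passed in 8 of 8 fits, Mpig6b and Gp5 in 7 and Gp6 in 6. Itgb3, the beta chain that pairs with Itga2b and the most abundant of the list, stood at 95.97 ± 28.0 and 95.3 ± 8.92 CPM (adjusted p = 0.986). With the block, 0 of the 14 passed in edgeR, where only 0.222% of all genes tested passed. Adjusted p in that fit was 0.0885, 0.077, 0.051 and 0.0895 for Itga2b, Mpig6b, Gp5 and Gp6. At an unadjusted p under 0.05, 9 of the 14 were higher with the block. The share of all genes tested at that p was not determined. Without floxed replicate 3, 10 rose and 0 fell (8.9% and 8.64% of all genes). This list, too, was drawn up with earlier results of these data known.

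Among 10 transcription factors of megakaryocytes, 1 rose and 0 fell in edgeR (1.22% and 1.75% of all genes tested). The median log2 fold change was 0.15. At an unadjusted p under 0.05, 3 were higher and 2 lower. DESeq2 counted 2 that rose and 1 that fell (5.12% and 6.05% of all genes). Gata1, which drives both the megakaryocyte and the erythroid program, rose from 45.4 ± 23.2 to 144.4 ± 38.1 CPM (1.67, adjusted p = 0.0372, 0.141 with the block) and passed in 1 of 8 fits that left out 1 library. Nfe2, the most abundant and a regulator of platelet release, stood at 302.0 ± 96.4 and 391.6 ± 71.8 CPM (adjusted p = 0.438). Without floxed replicate 3, 2 rose and 1 fell (8.9% and 8.64% of all genes). Over the 7 companion lists together, 183 of 191 genes were tested. In edgeR 14 rose, 4 fell and 165 did not pass, where 1.22% of all genes tested rose and 1.75% fell. With the block 1 rose, Alox15, where 0.222% of all genes tested passed.

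Markers of other cells also differed between genotypes, in a fit where 1.22% of all genes tested rose and 1.75% fell. All 15 erythroid markers had a log2 fold change above 0, and 3 of them, Hba-a1, Hbb-bt and Klf1, passed the test. Each of those 3 passed in only 1 of 8 fits that left out 1 library. The summed level of the 15 was 28530 to 72370 CPM in floxed and 124500 to 296900 CPM in KO libraries. Haemoglobin genes took 2.85% to 7.67% of gene counts in floxed and 12.2% to 24.3% in KO. Of 13 monocyte and macrophage markers, only 6 had a log2 fold change above 0, and the median was −0.013. In that list C1qa and C1qc rose, and each passed in 2 of 8 fits that left out 1 library. The summed level of the 13 was 3286 to 11390 CPM in floxed and 5021 to 5431 CPM in KO. None of the 11 neutrophil markers passed (16730 to 53180 and 25360 to 31960 CPM), nor did any of 9 endothelial and stromal markers (109.9 to 289.0 and 234.9 to 246.5 CPM). At an unadjusted p under 0.05 in edgeR, 0 neutrophil and 3 endothelial and stromal markers differed, all 3 higher in KO. In DESeq2 0 and 2 passed, where 5.12% of all genes rose and 6.05% fell. Of 10 B and plasma cell markers 2 rose and 1 fell (443.3 to 644.7 and 591.1 to 644.6 CPM), of 9 T and NK cell markers 1 fell (73.4 to 96.7 and 55.3 to 61.0 CPM), and of 7 mast cell and basophil markers 1 fell (112.3 to 666.6 and 308.6 to 364.7 CPM). Of the 12 stem cell markers tested, 1 rose, Esam (139.6 to 156.4 and 132.8 to 162.7 CPM for the list). Esam passed in 2 of 8 fits that left out 1 library. Without floxed replicate 3, many more markers passed, as did 8.9% of all genes as higher and 8.64% as lower: all 15 erythroid markers rose, 5 of 11 neutrophil markers fell, 5 of 9 endothelial and stromal markers rose, 4 monocyte and macrophage markers rose and 4 fell, 7 B and plasma cell markers rose and 1 fell, 3 T and NK cell markers fell, 5 of 7 mast cell and basophil markers fell and 3 stem cell markers rose. With the replicate block in edgeR, none of the 8 marker lists held a gene past the test, where 0.222% of all genes tested passed. At an unadjusted p under 0.05, 11 erythroid markers were higher with the block. The share of all genes tested at that p was not determined. Adjusted p with the block in edgeR was 0.175 for Hba-a1, 0.16 for Hbb-bt and 0.141 for Klf1. It was 0.0856 for C1qa, 0.0895 for C1qc and 0.117 for Esam. No marker of any list was at 0 in all libraries. The part of these cells in the levels of the 10 genes was not tested. After the haemoglobin genes were taken out of the counts, the same 7 genes were called, where 1.22% of the genes tested were called. This step left the counts of the 10 genes and of all other erythroid genes in place. It therefore cannot show the part of erythroid cells in those levels.

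Placed on a scale per kb of exon, with the limit that intronic reads are counted too, the levels had an order that differed between genotypes. Rsph14 was left out because its counts are those of Gnaz. In floxed libraries the order was Ppbp at 11.2 ± 10.46, Pf4 at 7.10 ± 2.22, P2rx1 at 5.05 ± 0.801, Thbs1 at 5.04 ± 1.05, P2ry12 at 3.22 ± 0.71, Tubb1 at 3.11 ± 2.43, Alox12 at 1.09 ± 0.995, Alox12e at 0.532 ± 0.186 and Gnaz at 0.477 ± 0.0777 CPM per kb. Only Thbs1 and P2ry12 were further apart than the sum of their SDs, 1 of 8 neighbouring pairs. In KO libraries the order was Ppbp at 69.7 ± 9.88, Pf4 at 34.5 ± 7.66, Thbs1 at 16.4 ± 0.834, Tubb1 at 10.3 ± 2.27, P2rx1 at 7.56 ± 1.28, Alox12 at 6.27 ± 0.297, P2ry12 at 1.83 ± 0.492, Alox12e at 1.60 ± 0.28 and Gnaz at 1.53 ± 0.162 CPM per kb. There 4 of 8 neighbouring pairs were further apart than that, and those not separated were Tubb1 and P2rx1, P2rx1 and Alox12, P2ry12 and Alox12e, and Alox12e and Gnaz. Among all genes tested, Ppbp moved from percentile 65.6 to 93.2 and Pf4 from 54.5 to 86.2, while P2ry12 moved from 38.2 to 29.9 and Gnaz from 12.7 to 27.4.

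Floxed replicate 3 divided the 10 genes in a way that the genotype did not. Compared with the mean of floxed replicates 1, 4 and 5, it was 4.47 times higher for Ppbp, 4.38 for Alox12 and 3.50 for Tubb1, but 1.64 for Pf4, 1.46 for Thbs1, 1.31 for Gnaz and 1.14 for P2ry12, and it was lower for P2rx1 (0.799) and Alox12e (0.577). Pf4 and Ppbp, which were alike in their direction between genotypes, were thus unlike in this library. For Ppbp and Alox12 the KO mean was 11.6 and 10.6 times the mean of those 3 floxed libraries. The summed level of erythroid markers and that of endothelial and stromal markers (289.0 CPM) were at their floxed maximum in this library. So were those of B and plasma cell markers (644.7 CPM) and, narrowly, stem cell markers (156.4 CPM, against 154.4 CPM in floxed replicate 1). Those of neutrophil, monocyte and macrophage (3286 CPM), and mast cell and basophil markers (112.3 CPM) were at their floxed minimum. T and NK cell markers were at theirs too (73.4 CPM, against 77.7 CPM in floxed replicate 1). In the endothelial and stromal list, Cdh5 was instead at its floxed minimum there (3.23 CPM), and Pecam1 was highest in floxed replicate 4 (51.8 CPM). The part of these cells in the values of this library was not tested.

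**Figure D4:**
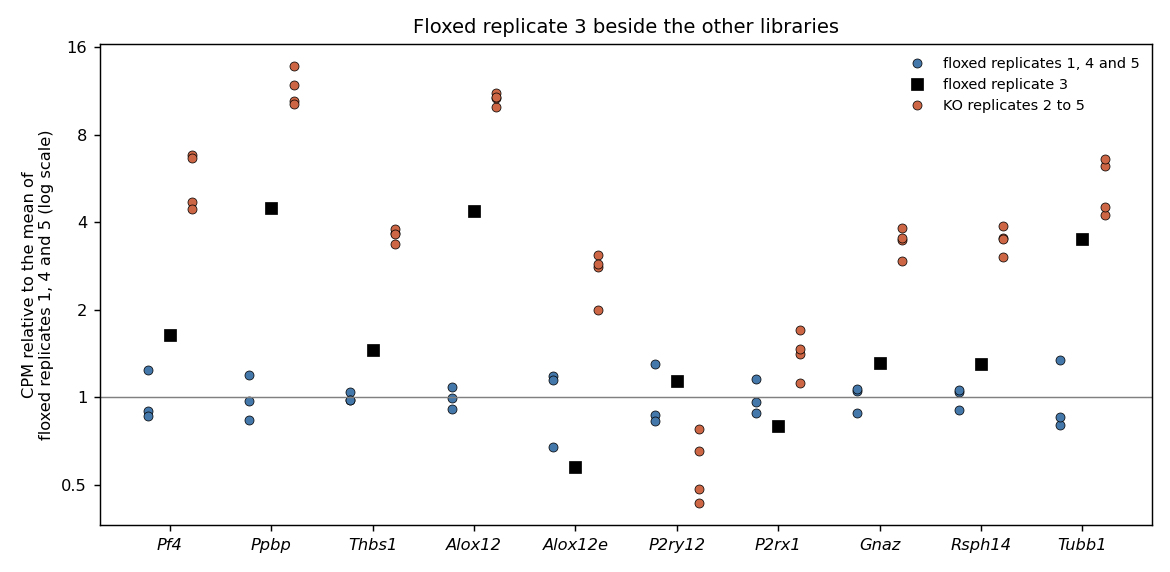
Level of each of the 10 genes relative to the mean of floxed replicates 1, 4 and 5 (y axis, log scale), for those libraries (blue), floxed replicate 3 (black squares) and the 4 KO libraries (orange). Floxed replicate 3 stands between the genotypes at 4.47 for Ppbp, 4.38 for Alox12 and 3.50 for Tubb1, near 1 for P2ry12, and at 0.577 for Alox12e.

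After each library was set against the mean of its genotype, the deviations of log2(CPM + 1) were alike between Ppbp and Thbs1 (Pearson r = 0.962 over the 8 libraries), Alox12 and Thbs1 (0.948), Alox12 and Ppbp (0.943) and Tubb1 and Alox12 (0.887), and they ran the other way between Alox12e and Pf4 (−0.721) or P2ry12 (−0.76). The values of a pair share the library and its depth and include floxed replicate 3, so they describe these 8 libraries only. The genes whose log2(CPM + 1) was most like that of each of the 10 over the same 8 libraries, members and overlapping genes left out, were Glo1, Gm15989 and Ccndbp1 for Pf4 (r of 0.991 to 0.994), Srsf6, Cmas and Mir451b for Ppbp (0.995 to 0.997), Gm21451, Gm8113 and Loxl2 for Thbs1 (0.996 to 0.998) and Gm44646, Gzmk and Psmd9 for Alox12 (0.994 to 0.995). They were Mrpl53, Vamp5 and Mrps7 for Alox12e (0.990 to 0.993), Tank, Lgals8 and Diaph2 for P2ry12 (0.994 to 0.995), Lat, Hap1 and Emc9 for P2rx1 (0.962 to 0.982), Cmc2, Cfap74 and Ighd for Gnaz (0.990 to 0.991), Cfap74, Zfp341 and Ighd for Rsph14 (0.992) and Cttn, Chtf18 and Slc2a4 for Tubb1 (0.995 to 0.998). High values were common with 8 libraries in 2 groups. The number of genes with r above 0.95 was 5 for P2rx1, 74 for Alox12e and 357 for Tubb1.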

How the data were processed

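RNA-Seq of LT-HSCs from 4 asrij floxed and 4 asrij KO mice was analysed. The authors sorted cells, made libraries from total RNA with the NEBNext Ultra kit, trimmed reads with Trim Galore, checked them with FastQC and aligned them to GRCm38/mm10 transcripts with Bowtie 2. The authors deposited whole-number counts for 138930 Ensembl transcripts in each library, not normalized. The counting tool, annotation release, software versions and use of strand are not given in the sources used here. Of the 8 files, 7 are tab-separated under a comma-separated name, so an automatic check could not read them as counts and their unit was recorded there as other, although a separate reading of every file found whole numbers of 0 or more throughout. The counts themselves show that reads anywhere in the genomic span of a transcript were counted on it, introns and either strand included, although the methods name an alignment to transcripts: 5 transcripts of Rsph14 with different exons all hold 969 counts, nearly all of them also counted on Gnaz, which lies on the other strand.

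Transcripts were assigned to GENCODE M21 genes (138789 matched), and each gene took the count of its most counted transcript (by the sum of the 8 libraries). Counts were filtered with filterByExpr, scaled by TMM and tested with edgeR 4.0.16 (glmQLFit and glmQLFTest, R 4.3.3, Benjamini-Hochberg adjustment over 21902 genes). Passing the test means an adjusted p under 0.05, and a called gene also has an absolute log2 fold change above 1.5. Python 3.11.15 with pandas 2.3.3 did the rest. Before use, simulated counts with 200 altered genes were run through the default fits of edgeR, limma-voom and DESeq2 as a test. The block fits, the other normalizations and filters, the sums over transcripts and the fits that left out 1 library were not run on them. Transcript counts per library summed to 56661356 to 120858975, and among the 261 called genes the median SE of the log2 fold change was 0.374. Tests measure the spread between mice, 1 library for each.

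The 10 genes, the 7 companion lists and the 8 marker lists were chosen with earlier results of these data known. Named beside the 10 were Ociad1, in each companion list up to 4 genes that rose and 4 that fell with the smallest adjusted p and the one with the highest floxed mean, genes that overlap or neighbour the 10, the 3 genes most like each by Pearson r, and markers at the extremes. Markers that passed, stem cell markers and a few platelet enzymes were named after their values had been seen.

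Replicate numbers come from the labels. The mice differ, but same-numbered libraries deviated together from their group means (r = 0.366, 0.381 and 0.554 for numbers 3, 4 and 5), so the fit with the number as a block on the 3 pairs is given where it changes a call. Unlike numbers did as well, 0.344 to 0.496 among numbers 1 to 3 and 0.372 to 0.58 between 4 and 5. The alternatives were other normalizations, filters and tests, sums over transcripts, no haemoglobin genes, a pair of blocks and leaving out each library.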

Additional observations from a re-analysis of the deposited data

Results flagged for a closer look

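In groups of 4 libraries, 4 of 64 groups examined (the 10 genes, Ociad1 and the named companion genes in each genotype) held 1 library far from the other 3, where chance gives about 3.2. All 4 were floxed replicate 3. Ppbp stood at 29.09 CPM there against 5.44 to 7.74 CPM in the other floxed libraries, Alox12 at 7.735 CPM against 1.62 to 1.93 CPM, Thbs1 at 38.62 CPM against 25.9 to 27.5 CPM, and Mpig6b at 1.948 CPM against 0.575 to 0.765 CPM. In each case the library lay on the side of the KO libraries.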

How the results depend on the processing

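The log2 fold changes of the 10 genes kept their direction in all 180 recalculations, and 3 moved by more than the spread between replicates, those of Ppbp, Alox12 and Tubb1 without floxed replicate 3. The 10 genes were chosen by these levels, and every recalculation reused the same libraries. Kept direction is therefore not further support for the differences. With the replicate block, 44 genes were called in place of 261, of the 10 genes 2 in place of 7, and of the companion genes 1 rose in place of 14 and 0 fell in place of 4. When a block set numbers 4 and 5 against numbers 1 to 3, 521 genes were called and 31 companion genes rose and 24 fell, and with DESeq2 the values were 503, 25 and 16. Of the 10 genes, 8 were called with that block and 8 with DESeq2, where 2.38% and 2.3% of the genes tested were called. Leaving out 1 library gave 51 to 857 genes called, 4 to 7 of the 10, 6 to 37 companion genes that rose and 0 to 36 that fell, the highest values without floxed replicate 3. Those fits hold fewer libraries. Ociad1 ranged from −1.75 to −1.30 and was no longer called in 5 of them: without floxed replicate 1 and KO replicates 2, 4 and 5 (adjusted p 0.0759 to 0.0882 in edgeR) and, with a fold change under the limit, without floxed replicate 3. Itgb3, at −0.01, became 0.029 with limma-voom, 0.017 with no filter, 0.004 with a minimum count of 50, 0.193 with the replicate block and 0.0 with the block for numbers 4 and 5, and ranged from −0.189 to 0.111 with 1 library left out. Of 378 values of named companion genes, 298 kept direction and side of the threshold, 60 lost it, 10 gained it and 10 turned, all of Itgb3. The causes were not tested. Genes near 1 CPM, such as Alox12e with 37 to 44 counts in floxed libraries, are limited by depth.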
